A study of Mus musculus with 6 samples.

Results

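Collagen chain genes were taken as the rows of the deposited table whose symbol is Col, a number, the letter a and a number. They came to 44 of 20475 genes: 11 fibrillar, 9 network-forming, 9 FACIT (fibril-associated collagens with interrupted triple helices) and 15 others, which are beaded-filament, anchoring, transmembrane and multiplexin chains and 2 outside these classes. The values come from RNA-seq of NIH3T3, an established mouse embryonic fibroblast line, at passage 5 and 48 h after treatment. There were 2 libraries from cells given extracellular vesicles (EVs, the membrane particles that cells release) shed by MDA-MB-231, a breast cancer line of human origin that lacks the hormone receptors and HER2. A further 2 came from cells given EVs shed by MCF10A, a human line of breast epithelium that forms no tumours, and 2 from cells given PBS (phosphate-buffered saline) in place of EVs. All 6 came from a single line with no genetic change named, so nothing here covers other fibroblasts, and the labels do not say that the 2 libraries of a group were separate cultures, so the p-values cover the spread among these libraries, which may be technical.

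Collagens are the main structural proteins of the extracellular matrix, and fibroblasts are their chief source in connective tissue. Each molecule is a trimer of chains wound into a triple helix in the endoplasmic reticulum, where prolines and lysines are hydroxylated first. Fibrillar collagens are then trimmed outside the cell, assemble into fibrils and are cross-linked by lysyl oxidases. Network collagens such as type IV form the sheets of basement membranes, FACIT collagens decorate fibril surfaces, and type VI forms beaded filaments around cells.

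Promoter windows were looked up in RefSeq (GRCm38.p6), each reaching 250 bases before to 50 bases after a start site, and 38 windows of 35 collagen genes were found. Col3a1, the single chain of type III collagen, and Col5a3, a minor chain of type V, are shown because their transcripts moved in opposite directions with both kinds of EV. Col1a2, the second chain of type I, is shown because it had the most reads of any collagen gene. Capitals mark matches, on either strand, to the TATA box (searched as TATAAA), the CCAAT box (as its name spells it), the GC box (searched as GGGCGG), the AP-1 element (searched as TGANTCA) and the SMAD element (searched as CAGACA). The windows are chr1:45311288-45311587 on the plus strand for Col3a1, chr9:20815018-20815317 on the minus strand for Col5a3 and chr6:4505368-4505667 on the plus strand for Col1a2.
Col3a1: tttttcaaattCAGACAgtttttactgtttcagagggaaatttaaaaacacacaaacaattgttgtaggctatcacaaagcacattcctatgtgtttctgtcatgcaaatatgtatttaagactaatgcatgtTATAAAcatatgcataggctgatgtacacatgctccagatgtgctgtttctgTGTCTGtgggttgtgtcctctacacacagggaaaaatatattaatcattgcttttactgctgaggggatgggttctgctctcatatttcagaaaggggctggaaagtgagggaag
Col5a3: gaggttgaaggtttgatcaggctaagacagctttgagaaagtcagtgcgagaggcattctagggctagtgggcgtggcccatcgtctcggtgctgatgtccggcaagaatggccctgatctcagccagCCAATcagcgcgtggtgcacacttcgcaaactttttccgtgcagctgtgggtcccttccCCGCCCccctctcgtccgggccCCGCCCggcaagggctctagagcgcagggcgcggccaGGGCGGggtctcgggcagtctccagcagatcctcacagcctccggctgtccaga
Col1a2: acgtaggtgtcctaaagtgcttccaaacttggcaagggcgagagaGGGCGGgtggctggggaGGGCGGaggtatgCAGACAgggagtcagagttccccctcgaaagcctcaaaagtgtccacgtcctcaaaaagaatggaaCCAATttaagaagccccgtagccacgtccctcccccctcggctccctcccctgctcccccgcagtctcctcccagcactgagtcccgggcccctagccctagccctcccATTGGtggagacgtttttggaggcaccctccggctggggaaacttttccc

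The Col3a1 window held 1 TATA box and 2 SMAD elements, the Col5a3 window 1 CCAAT box and 3 GC boxes, and the Col1a2 window 2 CCAAT boxes, 2 GC boxes and 1 SMAD element. Among all 32851 RefSeq windows, 13.6% held a TATA box, 37.4% a CCAAT box, 35.7% a GC box, 7.81% an AP-1 element and 21% a SMAD element. Among the 38 collagen windows the shares were 13.2%, 34.2%, 60.5%, 2.63% and 23.7% in the same order. These matches describe letters in the windows and nothing more.

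Type IV collagen genes lie in head-to-head pairs, on opposite strands with neighbouring starts. Col4a1 and Col4a2, whose products form the commonest type IV trimer, have windows at chr8:11312777-11313076 on the minus strand and chr8:11312555-11312854 on the plus strand. Capitals in these windows mark the 78 bases that they share, read once from each strand. The shared bases lie at the downstream end of both windows and take in the 50 bases after each start. They are therefore largely transcribed sequence and not a stretch between the starts.
Col4a1: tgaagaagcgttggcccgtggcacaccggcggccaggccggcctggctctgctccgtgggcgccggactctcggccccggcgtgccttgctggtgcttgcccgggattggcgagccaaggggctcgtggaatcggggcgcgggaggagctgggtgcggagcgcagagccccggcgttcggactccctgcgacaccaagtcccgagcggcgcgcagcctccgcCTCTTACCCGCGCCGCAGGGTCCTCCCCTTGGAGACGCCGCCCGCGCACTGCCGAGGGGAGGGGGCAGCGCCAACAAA
Col4a2: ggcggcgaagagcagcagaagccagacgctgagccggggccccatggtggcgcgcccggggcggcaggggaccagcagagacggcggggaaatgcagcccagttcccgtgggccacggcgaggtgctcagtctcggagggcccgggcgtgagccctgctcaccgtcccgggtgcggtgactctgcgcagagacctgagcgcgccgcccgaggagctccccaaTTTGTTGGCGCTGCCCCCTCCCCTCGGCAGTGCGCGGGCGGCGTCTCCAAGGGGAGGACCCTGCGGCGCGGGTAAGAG

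Col4a5 and Col4a6, on the X chromosome, form the other pair that was measured well. Their windows, chrX:141475169-141475468 on the plus strand and chrX:141474027-141474326 on the minus strand, do not overlap, and capitals mark the same motifs as above. These windows are shown because both transcripts of the pair were higher with MDA-MB-231 than with MCF10A EVs.
Col4a5: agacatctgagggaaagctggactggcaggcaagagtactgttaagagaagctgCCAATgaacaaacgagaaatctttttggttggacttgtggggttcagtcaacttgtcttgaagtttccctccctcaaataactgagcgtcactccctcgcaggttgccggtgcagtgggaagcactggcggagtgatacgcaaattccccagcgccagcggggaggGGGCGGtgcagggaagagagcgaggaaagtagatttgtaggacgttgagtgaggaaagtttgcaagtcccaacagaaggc
Col4a6: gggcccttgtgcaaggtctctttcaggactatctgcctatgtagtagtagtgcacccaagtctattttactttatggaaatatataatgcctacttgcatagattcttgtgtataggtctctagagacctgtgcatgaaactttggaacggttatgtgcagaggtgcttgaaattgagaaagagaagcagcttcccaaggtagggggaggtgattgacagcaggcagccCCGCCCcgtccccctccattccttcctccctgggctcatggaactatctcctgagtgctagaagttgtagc

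The libraries held 22451173 to 29315530 gene reads, and the libraries of a group differed by more than counting error (chi-square per degree of freedom 1.65 to 2.29 over 12167 to 12225 genes). All 10 fibroblast markers were present, summing to 272147 to 278858 normalised reads with MDA-MB-231 EVs, 291024 to 299039 with MCF10A EVs and 340413 to 341833 with PBS. The markers Dcn and Vim led that difference, and their part in the collagen results was not tested. Of 8 epithelial markers Epcam, Krt5 and Krt18 were at 0 in every library. The list summed to 28.5 to 37.2, 35.4 to 40.7 and 44.6 to 48.7 in the same group order. Most of it was Krt8, at 23.4 and 33.9, 38.6 and 32.0, and 43.55 and 48.7 normalised reads. Cdh1 had 2.16 to 4.06 normalised reads in the EV libraries and 0 in both PBS libraries. It was called higher in both comparisons with PBS by limma, and in neither by edgeR or DESeq2. Of 5 endothelial markers Emcn was at 0 and Pecam1 at most at 1.89 normalised reads, and the list summed to 147 to 184, 284 to 332 and 348 to 357. Nearly all of it was Cdh5, at 176 and 144, 329 and 280, and 351 and 344 normalised reads in the same group order. Cdh5 was called lower with MDA-MB-231 EVs against PBS and against MCF10A EVs (limma), the second not without a trend. It was not called with MCF10A EVs against PBS. The 3 leukocyte markers in the table summed to 975 to 1036, 1766 to 1817 and 3022 to 3119, nearly all of it Cd14, with Ptprc at most at 1.05. Chondrocyte markers (Sox9 aside, at most 7.33 each) summed to 1268 to 1316, 854 to 998 and 1065 to 1087, and osteoblast markers (Runx2 aside, at most 5.66 each, with Ibsp and Alpl at 0) to 1611 to 1705, 1398 to 1448 and 1574 to 1632.

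The sum of all collagen transcripts, most of it type I, was lower with both kinds of EV, while the FACIT sum was higher with MCF10A EVs. All collagen chains together had 243686 and 239516 normalised reads with MDA-MB-231 EVs, 254519 and 247006 with MCF10A EVs, and 273455 and 272088 with PBS. The sum was 0.886 of the PBS mean with MDA-MB-231 EVs and 0.919 of it with MCF10A EVs, or 0.927 and 0.934 of it as CPM of recovered reads. By class, the sums with MDA-MB-231 EVs were 0.887 (fibrillar), 0.919 (network), 0.949 (FACIT) and 0.816 (other) of the PBS mean. As CPM these became 0.929, 0.962, 0.993 and 0.854, so the FACIT sum lay close to PBS. With MCF10A EVs the sums of normalised reads were 0.889, 0.994, 1.14 and 0.894 of the PBS mean in the same class order. As CPM the network sum with MCF10A EVs lay above the PBS mean. These are descriptions of bulk RNA scaled to 1 library size. Fewer cells expressing collagen genes and less collagen RNA per cell cannot be told apart in them. A comparison of 2 with 2 libraries cannot give an exact two-sided permutation p below 0.333, so no test was run on sums.

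Most chains that changed were lower with EVs, and a few, led by Col3a1, were higher. Of the 44 collagen genes 35 could be tested, and 23 of these averaged at least 25 normalised reads and are described one by one. With MDA-MB-231 EVs against PBS, 2 of 35 rose and 14 fell (limma, adjusted p under 0.05), beside 17.9% higher and 16.9% lower of all 15025 genes tested. The median log2 change was -0.20 over the 35 collagen genes and 0.010 over all genes tested. With MCF10A EVs against PBS, 4 rose and 11 fell, beside 17.1% and 14.6% of all genes, with medians of -0.15 and 0.000081 (31.7% of all genes called either way, and 34.8% for MDA-MB-231 EVs against PBS). Between the EVs, 4 were higher and 12 lower with MDA-MB-231 than with MCF10A EVs, beside 6.84% and 10.1% of all genes, with medians of -0.15 and -0.00063 (16.9% called either way). Of the 35 genes, 8 were called in all 3 comparisons, 10 in 2 comparisons, 3 in 1 comparison and 14 in none. The 3 comparisons share libraries in pairs, so their values are given side by side only.

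**Figure D1:**
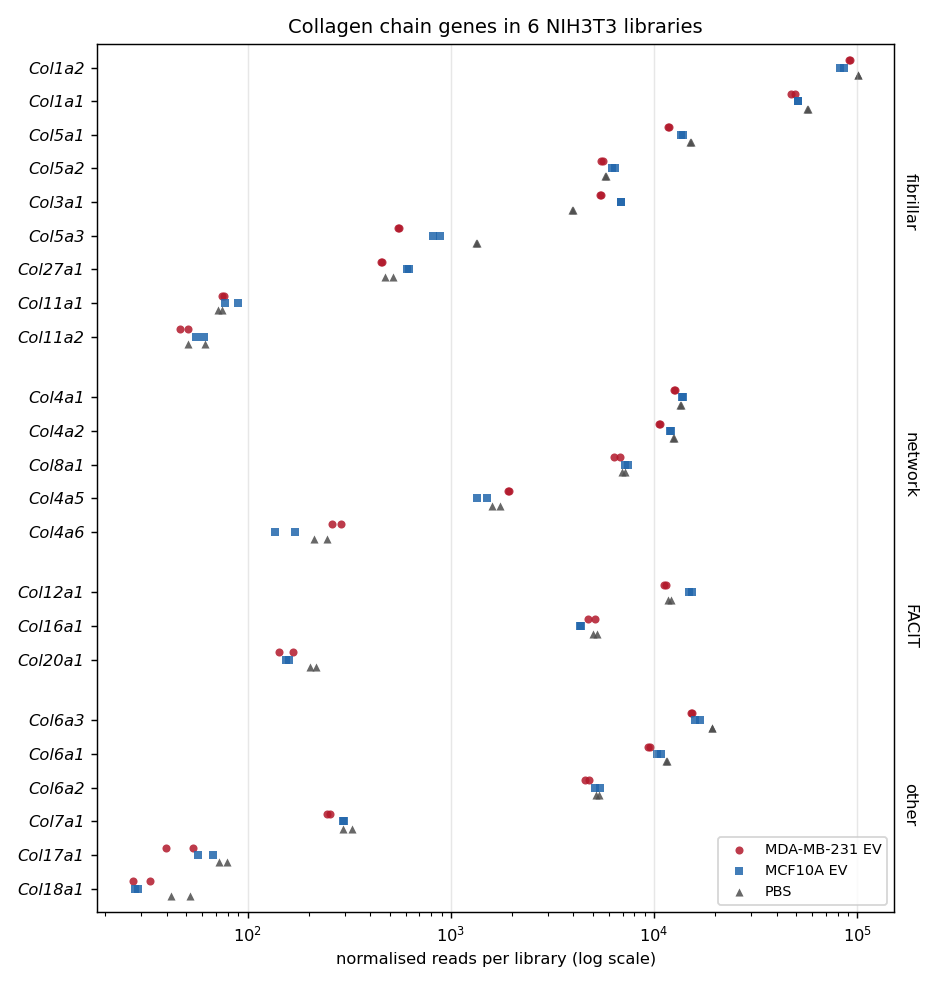
Normalised reads of 23 collagen chain genes in each of 6 libraries, on a log axis, by class and by group (MDA-MB-231 EV circles, MCF10A EV squares, PBS triangles). The levels span from Col18a1, with 27.4 to 51.9 normalised reads, to Col1a2, with 82348 to 100685, and the differences between groups are small beside that span.

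The counts depended on scaling and on single libraries. Scaled by library totals, calls among all genes became 3979 higher and 1888 lower in place of 2688 and 2543 for MDA-MB-231 EVs against PBS, and 1783 higher and 1106 lower in place of 1027 and 1514 between the EVs, while collagen calls were 2 higher and 11 lower, and 4 higher and 11 lower. For MDA-MB-231 EVs against PBS, the collagen genes called lower came to 7 without either PBS library and to 9 without MDA-MB-231 EV replicate 2, and those called higher to 1 without PBS replicate 1 or either MDA-MB-231 EV library. For MCF10A EVs against PBS, 2 were called higher without PBS replicate 1, and 7, 7 and 6 lower without PBS replicate 1, PBS replicate 2 and MCF10A EV replicate 2. Between the EVs, 2 were called higher without MCF10A EV replicate 2, and without MDA-MB-231 EV replicate 2 there were 0 higher (6 at an unadjusted p under 0.05) and 7 lower, where edgeR and DESeq2 on all libraries each called 4 higher.

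Fitted without a trend of the variance on the level, limma kept fewer of these calls. It called Col3a1 and Col5a3 in all 3 comparisons and Col12a1 in both that involve MCF10A EVs. It also called Col1a1, Col4a2, Col5a1, Col6a1, Col6a3, Col7a1 and Col20a1 lower with MDA-MB-231 EVs against PBS, and Col27a1 higher and Col1a2 and Col6a3 lower with MCF10A EVs against PBS. Scaling by library totals ended the calls of Col4a1 (-0.03), Col8a1 (-0.03) and Col12a1 (-0.02) with MDA-MB-231 EVs, Col18a1 (-0.67) with MCF10A EVs and Col6a3 (-0.05) between the EVs. Quantile scaling ended those of Col4a1 (0.0025), Col8a1 (-0.05) and Col12a1 (0.0087) with MDA-MB-231 EVs, and turned the Col1a2 fall into a rise (0.22). It also ended those of Col18a1 (-0.57) with MCF10A EVs and, between the EVs, Col4a1 (-0.05), Col6a3 (-0.06) and Col8a1 (-0.11). Fits to only the 4 libraries compared ended the calls of Col8a1 and Col12a1 with MDA-MB-231 EVs, Col4a5 and Col18a1 with MCF10A EVs, and, between the EVs, Col1a2, Col6a3 and Col8a1.

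**Figure D2:**
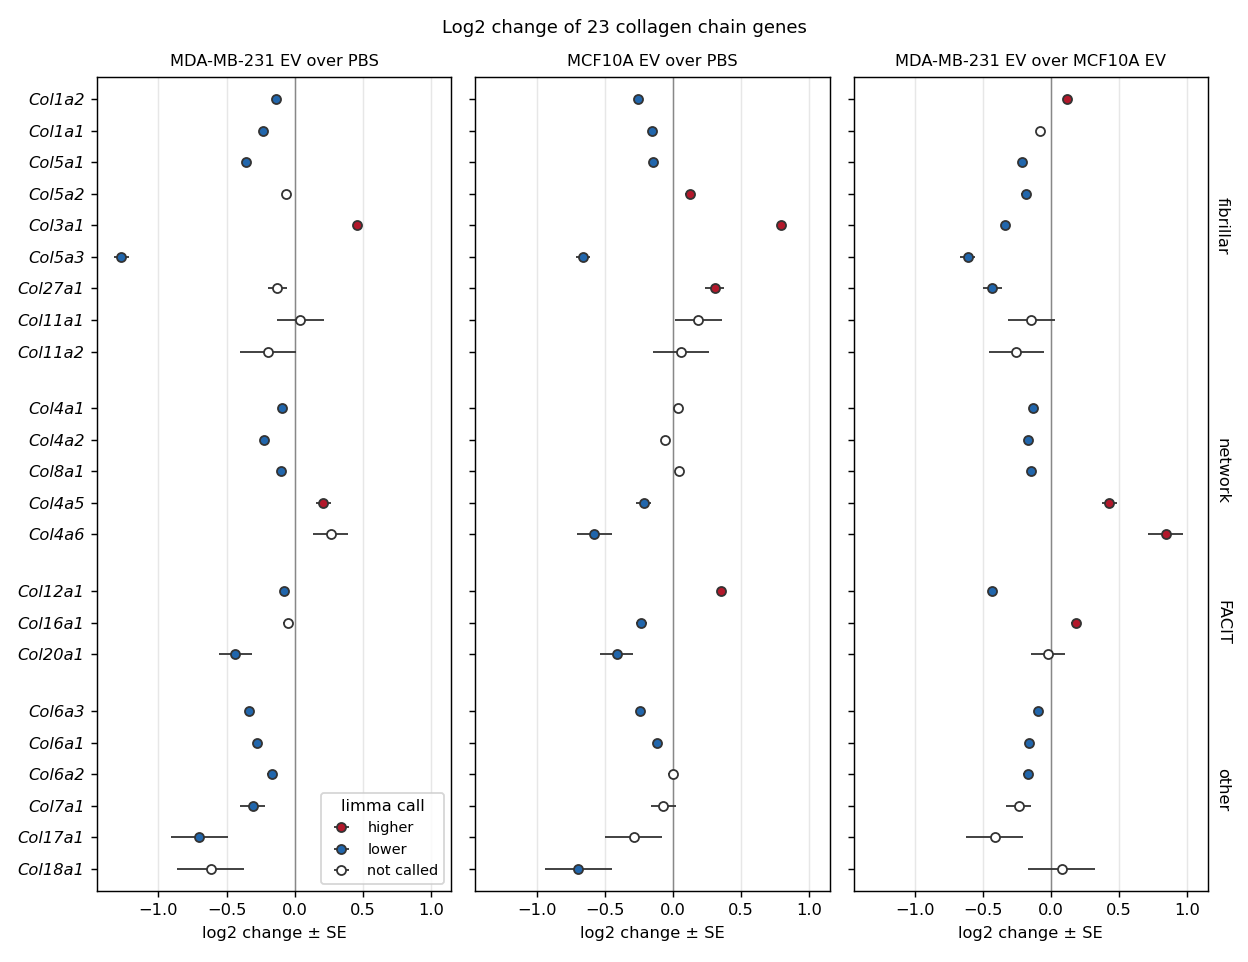
Log2 change ± SE (limma) of 23 collagen chain genes, by class, for MDA-MB-231 EV over PBS, MCF10A EV over PBS and MDA-MB-231 EV over MCF10A EV. Red marks genes called higher, blue genes called lower and white genes not called. Col3a1 lies right of 0 and Col5a3 left of 0 in both comparisons with PBS, and Col4a5 and Col4a6 both lie right of 0 with MDA-MB-231 EVs and left of 0 with MCF10A EVs.

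Type I collagen, the main fibrillar collagen of skin, bone and tendon, fell modestly with both kinds of EV. Col1a1, which codes for its alpha 1 chain, had 49252 and 47161 normalised reads with MDA-MB-231 EVs, 51133 and 50718 with MCF10A EVs, and 57110.4 and 56174 with PBS. Every EV library lay below both PBS libraries. Col1a1 fell 1.18-fold with MDA-MB-231 EVs (log2 change -0.23 ± 0.03 SE, limma adjusted p = 7.89e-06) and 1.11-fold with MCF10A EVs (-0.15 ± 0.03, limma adjusted p = 0.000548). Between the EVs it was 1.06-fold lower with MDA-MB-231 EVs and not called (95% interval of the log2 change -0.14 to -0.02, limma adjusted p = 0.0625), and quantile scaling turned that difference to 0.0081. It was called by edgeR (-0.07, adjusted p = 0.0289) and DESeq2 (-0.07, adjusted p = 0.0486), with the filter of a mean of 5 CPM (adjusted p = 0.0393), with the replicate block (adjusted p = 0.0355) and without MDA-MB-231 EV replicate 1 (-0.11, adjusted p = 0.0482).

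Col1a2, the alpha 2 chain, had 91857 and 90672 normalised reads with MDA-MB-231 EVs, 86343 and 82348 with MCF10A EVs, and 100685 and 100574 with PBS. The groups did not overlap, with MCF10A EVs lowest. It fell 1.10-fold with MDA-MB-231 EVs (-0.14 ± 0.03, limma adjusted p = 0.000992), but under quantile scaling it was higher (0.22, adjusted p = 7.48e-05). Quantile scaling gives every library the same value at the same rank, and Col1a2 ranked 6 in both MDA-MB-231 EV libraries, 10 and 11 in the MCF10A EV libraries and 8 in both PBS libraries. With MCF10A EVs it fell 1.19-fold (-0.26 ± 0.03, limma adjusted p = 7.35e-06), and it was 1.08-fold higher with MDA-MB-231 than with MCF10A EVs (0.11 ± 0.03, limma adjusted p = 0.0108). The fall with MDA-MB-231 EVs was not called without PBS replicate 1 or 2 (-0.14 each). The difference between the EVs was not called without either PBS library (0.11 each), MCF10A EV replicate 2 (0.08) or either MDA-MB-231 EV library (0.10 and 0.12).

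Type III collagen, which mixes with type I in the fibrils of stretchable tissues, went the other way. Col3a1, its single chain, had 5464 and 5434 normalised reads with MDA-MB-231 EVs, 6882 and 6889 with MCF10A EVs, and 3962 and 3973 with PBS. All 4 EV libraries lay above both PBS libraries, with MCF10A EVs highest. It rose 1.37-fold with MDA-MB-231 EVs (0.46 ± 0.03, limma adjusted p = 1.13e-08) and 1.74-fold with MCF10A EVs (0.80 ± 0.03, limma adjusted p = 8.94e-11). It was 1.26-fold lower with MDA-MB-231 than with MCF10A EVs (-0.34 ± 0.03, limma adjusted p = 1.05e-06). All 3 calls were made under each of 18 alternative settings, with log2 changes of 0.45 to 0.52, 0.78 to 0.82 and -0.34 to -0.29.

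**Figure D3:**
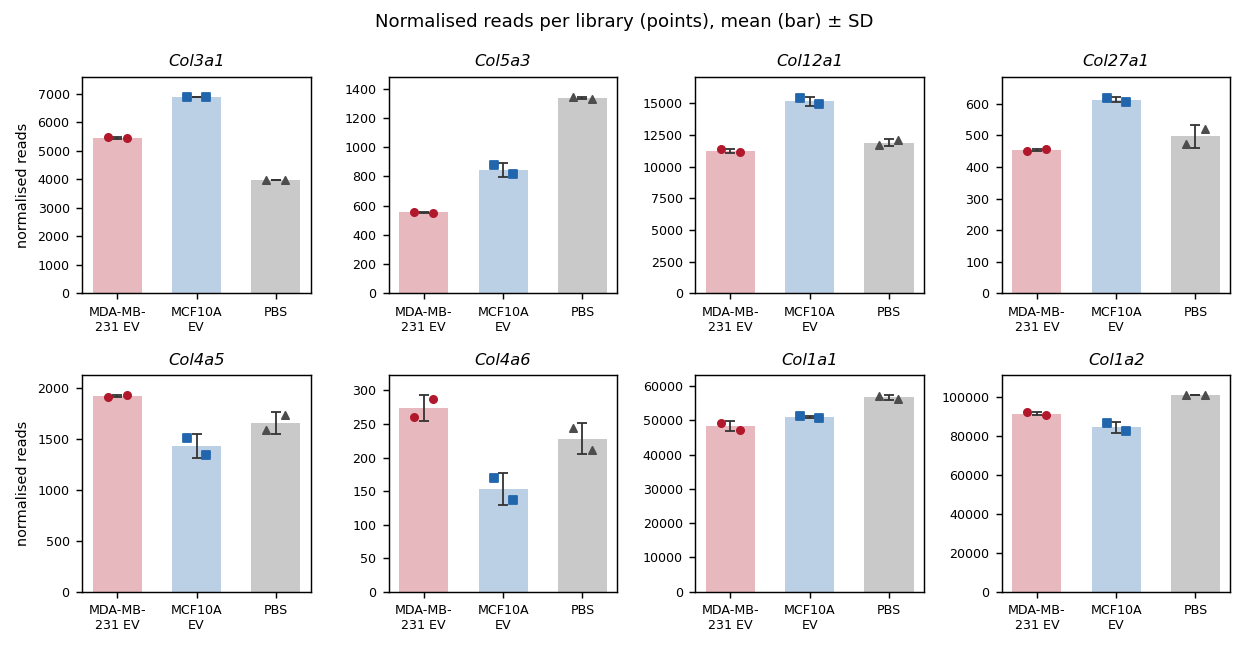
Normalised reads of 8 collagen chain genes, as single libraries (points), group means (bars, from 0) and SD (whiskers, n = 2 libraries per group), with MDA-MB-231 EV, MCF10A EV and PBS side by side. Col3a1 stands above PBS with both EVs and Col5a3 below it, Col12a1 and Col27a1 are high with MCF10A EVs, and Col4a5 and Col4a6 are low with MCF10A EVs.

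Type V collagen, which co-assembles with type I and limits fibril width, had 3 chains that did not move together. Col5a3, the least abundant of them, had 557 and 551 normalised reads with MDA-MB-231 EVs, 881 and 814 with MCF10A EVs, and 1343 and 1333 with PBS. The groups were well apart, with MDA-MB-231 EVs lowest and PBS highest. It fell 2.41-fold with MDA-MB-231 EVs (-1.27 ± 0.05, limma adjusted p = 1.92e-10), 1.58-fold with MCF10A EVs (-0.66 ± 0.05, limma adjusted p = 4.8e-07), and was 1.53-fold lower with MDA-MB-231 than with MCF10A EVs (-0.61 ± 0.05, limma adjusted p = 1.9e-06). These 3 calls too were made under each of the 18 alternatives.

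Col5a1, the chain found in most type V trimers, had 11737 and 11842 normalised reads with MDA-MB-231 EVs, 13865 and 13518 with MCF10A EVs, and 15224 and 15044 with PBS. The order of the groups was that of Col5a3, with no overlap. It fell 1.28-fold with MDA-MB-231 EVs (-0.36 ± 0.03, limma adjusted p = 6.67e-08) and 1.11-fold with MCF10A EVs (-0.14 ± 0.03, limma adjusted p = 0.000678), and was 1.16-fold lower with MDA-MB-231 than with MCF10A EVs (-0.22 ± 0.03, limma adjusted p = 4.67e-05). Col5a2, its usual partner, had 5453 and 5607 normalised reads with MDA-MB-231 EVs, 6395 and 6202 with MCF10A EVs, and 5810.3 and 5763 with PBS. It rose 1.09-fold with MCF10A EVs (0.12 ± 0.03, limma adjusted p = 0.00598), which was not called when either PBS library (0.13 and 0.12) or MCF10A EV replicate 1 (0.10) was left out. With MDA-MB-231 EVs it was not called (95% interval -0.13 to -0.00096, limma adjusted p = 0.111), and scaling by library totals set that change to 0.00048, while it was 1.14-fold lower than with MCF10A EVs (-0.19 ± 0.03, limma adjusted p = 0.000506).

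Among the less abundant fibrillar chains 1 changed. Col27a1, a chain known from cartilage and developing tissues, had 452 and 457 normalised reads with MDA-MB-231 EVs, 619.8 and 607 with MCF10A EVs, and 472 and 522 with PBS. The MCF10A EV libraries were high and the other 4 did not overlap between groups. It rose 1.24-fold with MCF10A EVs (0.31 ± 0.07, limma adjusted p = 0.00334), not called once PBS replicate 1 was left out (0.23), and was 1.35-fold lower with MDA-MB-231 than with MCF10A EVs (-0.43 ± 0.07, limma adjusted p = 0.000494). Against PBS its change with MDA-MB-231 EVs was not called (95% interval -0.28 to 0.02, limma adjusted p = 0.182). Col11a1 and Col11a2, minor chains of cartilage fibrils, stayed between 46.7 and 90.0 normalised reads, and none of their 6 comparisons was called by limma, edgeR or DESeq2 (none at an unadjusted p under 0.05 by any of them). Col24a1, another minor fibrillar chain, was among the genes too rare to describe singly.

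Over the fibrillar class, 1 of 10 tested genes rose and 4 fell with MDA-MB-231 EVs against PBS, 3 rose and 4 fell with MCF10A EVs against PBS, and 1 was higher and 5 lower with MDA-MB-231 than with MCF10A EVs. Without PBS replicate 1 the 3 higher with MCF10A EVs became 1, and the 1 higher between the EVs became 0 without any 1 library but MCF10A EV replicate 1. The shares over all genes given above (17.9% and 16.9%, 17.1% and 14.6%, and 6.84% and 10.1%, higher and lower in the 3 comparisons) stand beside these counts and those of the classes and lists that follow. The fibrillar sum was 163374 ± 2155 normalised reads with MDA-MB-231 EVs, 163752 ± 3558 with MCF10A EVs and 184126 ± 875 with PBS (SD, n = 2 each). Type I alone took 57.7% of collagen reads with MDA-MB-231 EVs, 53.9% with MCF10A EVs and 57.7% with PBS.

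Among the network collagens, the abundant basement membrane chains fell slightly with MDA-MB-231 EVs, and the X-linked pair Col4a5 and Col4a6 was higher with MDA-MB-231 than with MCF10A EVs. Col4a1 had 12686 and 12554 normalised reads with MDA-MB-231 EVs, 13915 and 13735 with MCF10A EVs, and 13568 and 13387 with PBS. Col4a2 had 10731 and 10573 with MDA-MB-231 EVs, 12053 and 11944 with MCF10A EVs, and 12550.2 and 12378 with PBS. In both genes the MDA-MB-231 EV libraries were the lowest. Col4a2 fell 1.17-fold with MDA-MB-231 EVs (-0.23 ± 0.03, limma adjusted p = 6.87e-06) and Col4a1 fell 1.07-fold (-0.09 ± 0.03, limma adjusted p = 0.00995), though quantile scaling set the Col4a1 change to 0.0025. The Col4a1 fall was also not called when either PBS library (-0.09 and -0.10) or MDA-MB-231 EV replicate 2 (-0.09) was left out. With MCF10A EVs against PBS neither was called (95% intervals -0.02 to 0.09 for Col4a1 and -0.11 to 0.0014 for Col4a2, adjusted p = 0.324 and 0.134 by limma), and quantile scaling turned Col4a2 to 0.010. Between the EVs, Col4a1 was 1.10-fold (-0.13 ± 0.03, limma adjusted p = 0.00256) and Col4a2 1.13-fold (-0.17 ± 0.03, limma adjusted p = 0.000345) lower with MDA-MB-231 EVs, the Col4a1 call being lost without MDA-MB-231 EV replicate 2 (-0.12).

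Col4a5, whose human counterpart is mutated in X-linked Alport syndrome, had 1912 and 1928 normalised reads with MDA-MB-231 EVs, 1513 and 1348 with MCF10A EVs, and 1585 and 1736 with PBS. The MDA-MB-231 EV libraries lay above and the MCF10A EV libraries below both PBS libraries. It rose 1.16-fold with MDA-MB-231 EVs (0.21 ± 0.05, limma adjusted p = 0.00741) and fell 1.16-fold with MCF10A EVs (-0.22 ± 0.05, limma adjusted p = 0.00728). Between the EVs it was 1.34-fold higher with MDA-MB-231 EVs (0.43 ± 0.05, limma adjusted p = 7.16e-05). The rise was not called without PBS replicate 1 (0.14) or either MDA-MB-231 EV library (0.22 and 0.20). The fall was not called without PBS replicate 2 (-0.15), MCF10A EV replicate 2 (-0.13) or either MDA-MB-231 EV library (-0.22 each), nor the difference between the EVs without MDA-MB-231 EV replicate 2 (0.42).

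Col4a6, its head-to-head neighbour, had 260.1 and 287 normalised reads with MDA-MB-231 EVs, 170.2 and 136 with MCF10A EVs, and 245 and 212 with PBS. The order of the groups was that of Col4a5. It was 1.79-fold higher with MDA-MB-231 than with MCF10A EVs (0.84 ± 0.13, limma adjusted p = 0.0003) and fell 1.49-fold with MCF10A EVs against PBS (-0.58 ± 0.13, limma adjusted p = 0.00262). With MDA-MB-231 EVs against PBS the change was not called (95% interval -0.0078 to 0.53, limma adjusted p = 0.129). The first call was lost without MDA-MB-231 EV replicate 2 (0.77), and the second without PBS replicate 1 (-0.47) or MCF10A EV replicate 2 (-0.42).

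Col8a1, a short-chain network collagen of vessel walls and the eye, had 6808 and 6381 normalised reads with MDA-MB-231 EVs, 7177 and 7399.6 with MCF10A EVs, and 7163 and 6946 with PBS. The MDA-MB-231 EV libraries were the lowest. It fell 1.07-fold with MDA-MB-231 EVs (-0.10 ± 0.03, limma adjusted p = 0.0383), a call lost without any 1 of 5 libraries, that is either PBS (-0.08 and -0.12), either MCF10A EV (-0.10 each) or MDA-MB-231 EV replicate 2 (-0.05). Between the EVs it was 1.11-fold lower with MDA-MB-231 EVs (-0.14 ± 0.03, limma adjusted p = 0.00857), a call lost without either PBS (-0.14 each), either MCF10A EV (-0.17 and -0.12) or MDA-MB-231 EV replicate 2 (-0.10). With MCF10A EVs against PBS it was not called (95% interval -0.03 to 0.12, limma adjusted p = 0.34).

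Over the network class, 1 of 9 tested genes rose and 3 fell with MDA-MB-231 EVs against PBS, 0 rose (0 also at an unadjusted p under 0.05 and by edgeR and DESeq2) and 2 fell with MCF10A EVs against PBS, and 2 were higher and 3 lower with MDA-MB-231 than with MCF10A EVs. With MDA-MB-231 EVs against PBS, 0 were called higher without PBS replicate 1 or either MDA-MB-231 EV library and 1 lower without either PBS library or MDA-MB-231 EV replicate 2. The 2 lower with MCF10A EVs became 0 without MCF10A EV replicate 2 and 1 without any other library but MCF10A EV replicate 1, and between the EVs the second MDA-MB-231 EV library, left out, took the calls to 0 higher (4 at an unadjusted p under 0.05) and 1 lower. Col10a1, the hypertrophic cartilage chain, and Col4a3, Col4a4 and Col8a2 had means of 0.993 to 10.6 normalised reads.

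The FACIT collagens held the second clear rise with MCF10A EVs. Col12a1, which lies on type I fibrils in tendon and other loaded tissue, had 11375 and 11126 normalised reads with MDA-MB-231 EVs, 15416 and 14917 with MCF10A EVs, and 11722 and 12086 with PBS. The MCF10A EV libraries stood well above the other 4. It rose 1.27-fold with MCF10A EVs (0.35 ± 0.03, limma adjusted p = 4.72e-07) and was 1.35-fold lower with MDA-MB-231 than with MCF10A EVs (-0.43 ± 0.03, limma adjusted p = 8.15e-08), both called under each of 18 alternatives. With MDA-MB-231 EVs against PBS it fell 1.06-fold (-0.08 ± 0.03, limma adjusted p = 0.0399), but only 8 of 18 alternatives called this fall and quantile scaling set the change to 0.0087. It was lost when any 1 of the 6 libraries was left out, with log2 changes of -0.10 and -0.06 without PBS replicates 1 and 2, -0.08 each without MCF10A EV replicates 1 and 2, and -0.10 and -0.07 without MDA-MB-231 EV replicates 1 and 2.

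Col16a1, a FACIT chain of skin and other connective tissue, had 4744 and 5123 normalised reads with MDA-MB-231 EVs, 4340.0 and 4365 with MCF10A EVs, and 5218 and 5000.4 with PBS. The MCF10A EV libraries were low and the other groups overlapped. It fell 1.17-fold with MCF10A EVs (-0.23 ± 0.04, limma adjusted p = 0.000238) and was 1.13-fold higher with MDA-MB-231 than with MCF10A EVs (0.18 ± 0.04, limma adjusted p = 0.00375). The difference between the EVs was not called without either MCF10A EV library (0.18 each) or MDA-MB-231 EV replicate 2 (0.12). With MDA-MB-231 EVs against PBS it was not called (95% interval -0.13 to 0.03, limma adjusted p = 0.329), and scaling by library totals turned the change to 0.015.

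Col20a1, a rarer FACIT chain, had 143 and 167 normalised reads with MDA-MB-231 EVs, 155 and 159 with MCF10A EVs, and 203 and 216 with PBS. All 4 EV libraries lay below both PBS libraries, and the EV groups overlapped. It fell 1.35-fold with MDA-MB-231 EVs (-0.44 ± 0.12, limma adjusted p = 0.0111) and 1.33-fold with MCF10A EVs (-0.41 ± 0.12, limma adjusted p = 0.0171), with no call between the EVs (95% interval -0.28 to 0.24, limma adjusted p = 0.936). The first fall was not called once either PBS library (-0.48 and -0.39) or MDA-MB-231 EV replicate 1 (-0.33) was left out, nor the second once either PBS (-0.46 and -0.37) or either MCF10A EV library (-0.39 and -0.43) was. DESeq2 called neither fall (adjusted p = 0.0625 and 0.0718). The remaining tested FACIT genes, Col9a2, Col9a3 and Col14a1, had means of 1.02 to 16.4 normalised reads. Over the class, 0 of 6 tested genes rose (0 also at an unadjusted p under 0.05 and by edgeR and DESeq2) and 2 fell with MDA-MB-231 EVs against PBS, 1 rose and 2 fell with MCF10A EVs against PBS, and 1 was higher and 1 lower with MDA-MB-231 than with MCF10A EVs. These are the calls of Col12a1, Col16a1 and Col20a1, and the libraries that end each are given with the gene.

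Type VI collagen, the beaded filament that links cells to the fibrillar matrix, was lower with MDA-MB-231 EVs in all 3 of its chains that could be tested. Col6a3 had 15403 and 15187 normalised reads with MDA-MB-231 EVs, 16858 and 15836 with MCF10A EVs, and 19248 and 19308 with PBS. Col6a1 had 9564 and 9376 with MDA-MB-231 EVs, 10834 and 10360.2 with MCF10A EVs, and 11505 and 11470.3 with PBS. In both genes every EV library lay below both PBS libraries, with MDA-MB-231 EVs lowest. Col6a3 fell 1.26-fold with MDA-MB-231 EVs (-0.33 ± 0.03, limma adjusted p = 5.37e-07) and 1.18-fold with MCF10A EVs (-0.24 ± 0.03, limma adjusted p = 2.68e-05), both called under each of 18 alternatives. Its difference between the EVs was 1.07-fold (-0.10 ± 0.03, limma adjusted p = 0.0434), and 7 of 18 alternatives called it. That call was lost without PBS replicate 1 or 2 (-0.10 each), MCF10A EV replicate 1 (-0.05) or either MDA-MB-231 EV library (-0.11 and -0.09).

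Col6a1 fell 1.21-fold with MDA-MB-231 EVs (-0.28 ± 0.03, limma adjusted p = 2.24e-06) and 1.08-fold with MCF10A EVs (-0.12 ± 0.03, limma adjusted p = 0.00619), and was 1.12-fold lower with MDA-MB-231 than with MCF10A EVs (-0.16 ± 0.03, limma adjusted p = 0.00122). The fall with MCF10A EVs was not called without PBS replicate 1 or 2 (-0.11 and -0.12) or MCF10A EV replicate 2 (-0.08), nor the difference between the EVs without MDA-MB-231 EV replicate 2 (-0.15). Col6a2, the neighbour of Col6a1, had 4794 and 4562 normalised reads with MDA-MB-231 EVs, 5387 and 5136 with MCF10A EVs, and 5168 and 5358 with PBS. The MDA-MB-231 EV libraries were low and the other groups overlapped. It fell 1.13-fold with MDA-MB-231 EVs against PBS (-0.17 ± 0.04, limma adjusted p = 0.00145) and was as much lower than with MCF10A EVs (1.12-fold, -0.17 ± 0.04, limma adjusted p = 0.00386). With MCF10A EVs against PBS its 95% interval was -0.08 to 0.08 (limma adjusted p = 0.999), with a change of 0.02 under quantile scaling or library totals. The fall was not called when PBS replicate 2 (-0.14) or the second MDA-MB-231 EV library (-0.13) was left out, and the difference between the EVs not when MCF10A EV replicate 1 (-0.14) or the second MDA-MB-231 EV library (-0.13) was left out.

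The remaining chains were much rarer. Col7a1, the anchoring fibril chain at the base of the epidermis, had 246 and 255 normalised reads with MDA-MB-231 EVs, 297 and 294 with MCF10A EVs, and 326 and 295 with PBS. The MDA-MB-231 EV libraries were low and the other groups overlapped. It fell 1.24-fold with MDA-MB-231 EVs (-0.31 ± 0.09, limma adjusted p = 0.0158), not called once PBS replicate 1 (-0.24) or either MDA-MB-231 EV library (-0.28 and -0.33) was left out or by DESeq2 (adjusted p = 0.092), and was not called with MCF10A EVs against PBS (95% interval -0.27 to 0.13, limma adjusted p = 0.621) or between the EVs (95% interval -0.43 to -0.04, limma adjusted p = 0.0945).

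Col17a1, a transmembrane chain of epithelial hemidesmosomes, had 39.7 and 54.1 normalised reads with MDA-MB-231 EVs, 57.1 and 67.3 with MCF10A EVs, and 79.1 and 72.8 with PBS. The groups did not overlap. It fell 1.62-fold with MDA-MB-231 EVs (-0.70 ± 0.21, limma adjusted p = 0.0166), not called once either PBS library (-0.64 and -0.76) or MDA-MB-231 EV replicate 1 (-0.48) was left out or by DESeq2 (adjusted p = 0.0883), and the other comparisons were not called (limma adjusted p = 0.34 for MCF10A EVs against PBS and 0.215 between the EVs). Col18a1, the source of endostatin, had 27.4 and 33.0 normalised reads with MDA-MB-231 EVs, 29.0 and 27.9 with MCF10A EVs, and 51.9 and 41.9 with PBS. All EV libraries lay below both PBS libraries. It fell 1.62-fold with MCF10A EVs (-0.69 ± 0.25, limma adjusted p = 0.0443), and 4 of 17 alternatives called this fall. The call was lost with the replicate number as a block (adjusted p = 0.0527) and when any 1 of the 6 libraries was left out, with log2 changes of -0.54 and -0.85 without PBS replicates 1 and 2, -0.72 and -0.67 without MCF10A EV replicates 1 and 2, and -0.69 each without MDA-MB-231 EV replicates 1 and 2. With MDA-MB-231 EVs it was 1.53-fold lower and not called (-0.62 ± 0.25, limma adjusted p = 0.0674). Of 17 alternatives 2 called that difference, edgeR (-0.63, adjusted p = 0.0447) and limma with a pseudocount of 5 (-0.56, adjusted p = 0.0458). Between the EVs Col18a1 was not called (0.08, limma adjusted p = 0.879), and the EV groups overlapped.

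Over the chains outside the fibrillar, network and FACIT classes, 0 of 10 tested genes were called higher in any comparison (0 also at an unadjusted p under 0.05 and by edgeR and DESeq2). With MDA-MB-231 EVs against PBS 5 fell, with MCF10A EVs against PBS 3 fell, and 3 were lower with MDA-MB-231 than with MCF10A EVs. The 5 became 3 when any 1 of the 4 libraries compared was left out and by DESeq2, and the 3 that fell with MCF10A EVs became 1 without either PBS library or MCF10A EV replicate 2. The 3 lower between the EVs became 1 without MCF10A EV replicate 1 and 0 without MDA-MB-231 EV replicate 2 (4 at an unadjusted p under 0.05). Col15a1, Col23a1, Col25a1 and Col28a1 had means of 2.64 to 10.1 normalised reads.

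In all, 12 tested collagen genes averaged under 25 normalised reads (0.993 to 16.4) and 0 of them were called by limma, edgeR or DESeq2 in any comparison. At an unadjusted p under 0.05, limma gave 1, 3 and 2 of them for the comparisons of MDA-MB-231 EVs and of MCF10A EVs with PBS and for that between the EVs. That they were not called does not show that they did not differ. A further 9 genes were too low to test. Col2a1, the main cartilage fibril chain, Col22a1, Col6a5, Col13a1 and Col26a1 averaged at most 0.475 normalised reads. Col9a1, Col19a1, Col6a4 and Col6a6 had 0 reads in all 6 libraries, which allows up to 0.102 to 0.134 CPM (3 reads of a library's total, counting error only).

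Levels between genes were compared per kilobase of joined exons. With PBS the order ran from Col1a2 at 18816 normalised reads per kilobase through Col1a1 at 9552, Col6a1 at 2802, Col4a1 at 2037 and Col4a2 at 1932 to Col5a1 at 1800.4 and Col6a3 at 1776. Col3a1 stood at 979 with MDA-MB-231 EVs, 1237 with MCF10A EVs and 713 with PBS on the same scale. Ratios between chains of 1 trimer or fibril show how the mix of chains differed between groups. Col1a1 to Col1a2 was 0.476 ± 0.0102 with MDA-MB-231 EVs, 0.545 ± 0.0151 with MCF10A EVs and 0.508 ± 0.00554 with PBS (SD, n = 2 each, as in the next sentences), so the PBS libraries lay between the EV groups. Col4a1 to Col4a2 was 1.16 ± 0.00363, 1.12 ± 0.00309 and 1.05 ± 0.000307 in the same group order, higher in all EV libraries. Col5a1 to Col5a2 was 1.68 ± 0.0225, 1.71 ± 0.00625 and 2.06 ± 0.00553, lower in all EV libraries, and Col6a1 to Col6a2 was 2.97 ± 0.0622, 2.95 ± 0.00634 and 3.20 ± 0.0886. With the longest transcript as length the type VI ratio was 2.30, 2.29 and 2.48, a change of 1 factor in every library.

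Further ratios were chosen after the values were seen. Col3a1 to Col1a1 was 0.121 ± 0.00322 with MDA-MB-231 EVs, 0.144 ± 0.000929 with MCF10A EVs and 0.0747 ± 0.00101 with PBS. Col5a3 to Col5a1 was 0.0645 ± 0.000861, 0.0850 ± 0.00328 and 0.121 ± 0.000381 in the same order. Col4a5 to Col4a1 was 0.154 ± 0.00205, 0.105 ± 0.00761 and 0.125 ± 0.00922. In each of these ratios the groups did not overlap. A ratio within a library is unaffected by a scaling that multiplies every gene by 1 factor, but quantile scaling moves genes unequally, and a ratio shows unequal change only.

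**Figure D4:**
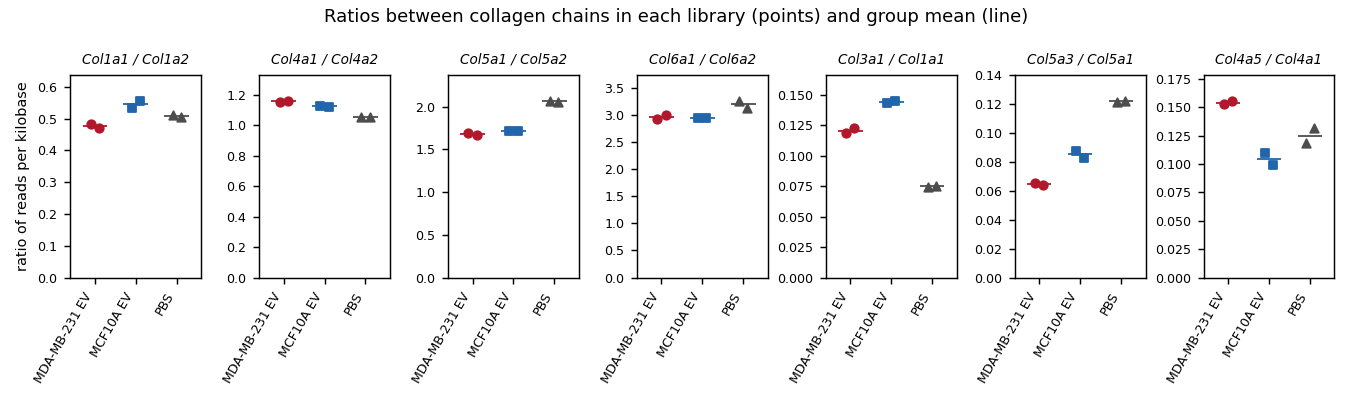
Ratio of reads per kilobase between pairs of collagen chains in each library (points) with the group mean (line), for MDA-MB-231 EV, MCF10A EV and PBS, each axis starting at 0. Col3a1 to Col1a1 is higher with both EVs (0.121 and 0.144) than with PBS (0.0747), and Col5a3 to Col5a1 is lower (0.0645 and 0.0850 against 0.121).

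Neighbouring collagen genes were compared in the order of RefSeq protein-coding genes. Col4a1 and Col4a2, whose windows share 78 bases, both fell with MDA-MB-231 EVs against PBS, with the quantile-scaling exception of Col4a1 given above, and Col4a5 and Col4a6 were both lower with MCF10A EVs than in either other group. Col6a2 and Col6a1 are adjacent on chromosome 10, and with MCF10A EVs Col6a1 fell while Col6a2 had a log2 change within -0.08 to 0.08. Col3a1 and Col5a2 are adjacent on chromosome 1, and both rose with MCF10A EVs, 1.74-fold and 1.09-fold, with the limits of the Col5a2 rise given above. With MDA-MB-231 EVs against PBS Col3a1 rose 1.37-fold, while Col5a2 was not called (log2 change -0.07, limma adjusted p = 0.111). Col4a4 and Col4a3 were too low to call, and the runs of Col9a1 with Col19a1 and of Col6a6, Col6a5 and Col6a4 were almost unread.

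The enzymes and chaperones that fold and modify collagen in the endoplasmic reticulum were mostly lower with EVs. Of 19 such genes tested, 1 rose and 15 fell with MDA-MB-231 EVs against PBS (median log2 change -0.26), and 1 rose and 10 fell with MCF10A EVs against PBS (median -0.19). Plod1, a lysyl hydroxylase, had 3354 and 3308 normalised reads with MDA-MB-231 EVs, 3151 and 3092 with MCF10A EVs, and 4789 and 4851 with PBS. P4hb, the beta subunit of prolyl 4-hydroxylase, had 30465 and 29385 with MDA-MB-231 EVs, 36117 and 35060.2 with MCF10A EVs, and 41023 and 40686 with PBS. Both were lower in every EV library than in either PBS library, by 1.45-fold (limma adjusted p = 6.47e-09) for Plod1 and 1.37-fold (9.54e-09) for P4hb with MDA-MB-231 EVs. Glt25d1, the older symbol of the collagen galactosyltransferase Colgalt1, was the 1 that rose, with 2717 and 2767, 2878 and 2869.6, and 2488 and 2492 in the same group order. Between the EVs, 2 were higher and 10 lower with MDA-MB-231 than with MCF10A EVs, and Plod2, another lysyl hydroxylase, was among the higher, with 1751 ± 48.9 with MDA-MB-231 EVs and 1388 ± 21.8 with MCF10A EVs (SD, n = 2 each). Between the EVs the 2 higher became 1 without any 1 of the 6 libraries and by DESeq2, and the 10 lower became 6 without MCF10A EV replicate 1, 4 without MDA-MB-231 EV replicate 2 and 0 without a trend (9 at an unadjusted p under 0.05).

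The lysyl oxidase Lox, which starts collagen cross-linking, rose with MDA-MB-231 EVs and fell with MCF10A EVs. It had 15839 and 15801 normalised reads with MDA-MB-231 EVs, 9822 and 9545 with MCF10A EVs, and 12777 and 12879 with PBS. The 3 groups did not overlap, and Lox was 1.63-fold higher with MDA-MB-231 than with MCF10A EVs (0.71 ± 0.03, limma adjusted p = 2.33e-10). Of 7 cross-linking genes, Lox and Pxdn (a peroxidase that cross-links type IV) rose and Loxl1 fell with MDA-MB-231 EVs against PBS, though Pxdn was not called without PBS replicate 1 (0.11). With MCF10A EVs against PBS 0 rose (0 also unadjusted and by edgeR) and Lox and Loxl1 fell, and Lox was the 1 gene called between the EVs.

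Of 6 tested procollagen processing genes 1 rose and 2 fell in each comparison with PBS, and 0 were higher (0 also unadjusted and by edgeR) and 2 lower with MDA-MB-231 than with MCF10A EVs. The 1 that rose, Pcolce, was not called in either comparison when any 1 of its 4 libraries was left out, with log2 changes of 0.07 to 0.10. Of the 2 lower, Adamts14 and Tll1, Tll1 was not called with MDA-MB-231 EVs without either PBS library or MDA-MB-231 EV replicate 2, nor with MCF10A EVs without any 1 of the 4 libraries compared. Between the EVs 1 was lower without any 1 of the 4 EV libraries. Adamts14, an N-propeptidase, had 460.0 and 442 normalised reads with MDA-MB-231 EVs, 626 and 620.2 with MCF10A EVs, and 865 and 818 with PBS, lowest with MDA-MB-231 EVs. Tll1 was almost unread, with means of 0.511 normalised reads with MDA-MB-231 EVs, 0.436 with MCF10A EVs and 4.55 with PBS. Of 8 collagen-degrading proteases 3 (Mmp13, Mmp2 and Mmp14) fell and 0 rose in each comparison with PBS (0 also unadjusted and by edgeR). Mmp13, the main mouse interstitial collagenase, had 399 and 330.2 with MDA-MB-231 EVs, 745 and 699 with MCF10A EVs, and 1714 and 1653 with PBS. It was below PBS in every EV library, by 4.63-fold with MDA-MB-231 EVs (-2.21 ± 0.08, limma adjusted p = 1.38e-11) and 2.33-fold with MCF10A EVs (-1.22 ± 0.08, limma adjusted p = 2.43e-08). Between the EVs Mmp13 was the 1 protease called, lower with MDA-MB-231 EVs, with 0 higher (1 unadjusted, 0 by edgeR).

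Of 10 tested collagen receptor genes 0 rose in any comparison by limma (1, 1 and 0 unadjusted, and 0, 1 and 0 by edgeR, for the comparisons of MDA-MB-231 EVs and of MCF10A EVs with PBS and for that between the EVs), while 5, 2 and 2 were lower. Without MDA-MB-231 EV replicate 2 the 5 became 3 and the 2 between the EVs became 0 (2 at an unadjusted p under 0.05). The 2 with MCF10A EVs became 1 without either PBS library or MCF10A EV replicate 2, and the 2 between the EVs became 1 without the first library of either EV group. Scaling by library totals called 1 receptor higher with MDA-MB-231 EVs against PBS and 1 between the EVs. Itga1, an integrin chain that binds type IV, had 303 and 314 normalised reads with MDA-MB-231 EVs, 330.0 and 338 with MCF10A EVs, and 435 and 488 with PBS, lower in all EV libraries. Of 17 transcription factors known from collagen gene control, 5 rose and 2 fell with MDA-MB-231 EVs against PBS, 3 rose and 6 fell with MCF10A EVs against PBS, and 5 were higher and 1 lower between the EVs. These counts hung on single libraries, and leaving out 1 of those compared gave 1 to 3 in place of the 5 that rose with MDA-MB-231 EVs, 0 or 1 in place of the 3 that rose with MCF10A EVs, and 1 to 3 in place of the 5 higher between the EVs. The 2 that fell with MDA-MB-231 EVs became 1 without any 1 of those libraries, the 6 that fell with MCF10A EVs became 1 without PBS replicate 1, 3 without PBS replicate 2 or either MDA-MB-231 EV library and 2 without MCF10A EV replicate 1, and the 1 lower between the EVs was lost without any 1 of the 6 libraries. DESeq2 called 3 of the factors higher with MDA-MB-231 EVs and 0 with MCF10A EVs against PBS, and library totals gave 9 higher with MDA-MB-231 EVs. Cebpb fell in both comparisons with PBS, with 8545 ± 45.5 normalised reads with MDA-MB-231 EVs, 8152 ± 399 with MCF10A EVs and 10032 ± 265 with PBS (SD, n = 2 each). Sox9, which drives cartilage collagens, had 1309 and 1259 with MDA-MB-231 EVs, 844 and 990.1 with MCF10A EVs, and 1074 and 1057 with PBS, with no overlap. Its rise with MDA-MB-231 EVs against PBS was not called when any 1 of the 4 MDA-MB-231 EV and PBS libraries was left out (0.24 to 0.30).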

How the data were processed

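NIH3T3 RNA had been sequenced in 6 libraries, 2 per group, from TRIzol extracts and a strand-specific mRNA kit, per the labels' protocols. TopHat2, edgeR and the human build hg19 are named, per the submitters' processing notes, although the genes are mouse. The counter, the annotation and the strand counted were not given in the sources used here. The authors deposited a normalised signal for 20475 genes, whose values are edgeR pseudo-counts (reads rescaled so that all libraries have 1 size). Inverting that rescaling gave whole reads for 122850 of 122850 values within a relative 1e-06.

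limma 3.58.1 with a trend (R 4.3.3) was fitted to log2(value + 1) of 15025 genes that reached 1 normalised read in 2 or more libraries, with 1 mean per group and 3 residual and 11.5 prior degrees of freedom, so folds of rare genes are understated. A call is a Benjamini-Hochberg adjusted p below 0.05 over all genes tested, and changes are log2 ± SE. edgeR 4.0.16 and DESeq2 1.42.0 were run on the recovered reads. The fits were also run on simulated reads in which far fewer genes changed than were called here. That run does not measure the error rate of these calls. Exon lengths came from GENCODE M21 and promoters from RefSeq. Collagen genes with a mean of 25 or more normalised reads, and up to 2 genes per direction and pathway list, were eligible to be named. The members and lists were chosen with earlier results of these data known.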

Additional observations from a re-analysis of the deposited data

How the results depend on the processing

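The 18 alternatives were pseudocounts of 0.5 and 5, no filter, a filter of a mean of 5 CPM, no trend, quantile scaling, library totals, TMM, edgeR, DESeq2, only the 4 libraries compared, a replicate block and leaving out each of 6 libraries. All of them made 7 of the 16 collagen calls of MDA-MB-231 EVs against PBS, 5 of the 15 of MCF10A EVs against PBS and 3 of the 16 between the EVs.

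limma without a trend called 1 higher and 8 lower for MDA-MB-231 EVs against PBS, 3 higher and 3 lower for MCF10A EVs against PBS, and 0 higher (6 at an unadjusted p under 0.05, 4 by edgeR) and 3 lower between the EVs. Leaving out 1 library gave 1 to 2 higher and 7 to 12 lower for MDA-MB-231 EVs against PBS, 2 to 4 higher and 6 to 9 lower for MCF10A EVs against PBS, and 0 to 3 higher and 7 to 12 lower between the EVs, where the lone library of a group is assumed to vary like the others. Over all genes, calls numbered 5231, 4764 and 2541 in the 3 comparisons, 3346, 2231 and 378 without a trend, and 1530 between the EVs by DESeq2. Leaving out 1 library gave as few as 3476, 2810 and 721.

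Log2 changes for MDA-MB-231 EVs against PBS turned sign under quantile scaling for Col1a2 (0.22), Col4a1 (0.0025) and Col12a1 (0.0087), under library totals for Col5a2 (0.00048) and Col16a1 (0.015), and for Col16a1 without MDA-MB-231 EV replicate 1 (0.0044, against -0.11 without replicate 2). For MCF10A EVs against PBS, Col6a2 turned under quantile scaling (0.021), library totals (0.024) and without PBS replicate 2 (0.026) or MCF10A EV replicate 2 (0.034, against -0.035 without MCF10A EV replicate 1), and Col4a2 under quantile scaling (0.010). Col11a2 turned without PBS replicate 2 (-0.074) or MCF10A EV replicate 2 (-0.0059, against 0.19 without PBS replicate 1), and Col7a1 without PBS replicate 1 (0.0022, against -0.14 without PBS replicate 2). Between the EVs, Col18a1 turned without MDA-MB-231 EV replicate 2 (-0.050, against 0.21 without replicate 1), Col1a1 under quantile scaling (0.0081), and Col20a1 under library totals (0.022) or without MDA-MB-231 EV replicate 1 (0.087, against -0.13 without replicate 2). The ranks of Col1a2 are given above, and the cause of these turns was not tested for any gene.

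The replicate numbers did not pair the libraries: deviations from the group means correlated at -0.011 to 0.027 over 10104 genes. With the number as a block, collagen calls were 2 higher and 14 lower, 4 and 10, and 4 and 13.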

Other observations

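Genes of fibril-associated proteoglycans and glycoproteins, a list added after values were seen, were also lower in sum with EVs, at 243842 to 249757 normalised reads with MDA-MB-231 EVs, 281753 to 293920 with MCF10A EVs and 364753 to 365104 with PBS. Of 12 tested genes 2 rose and 7 fell with MDA-MB-231 EVs against PBS, 0 rose (0 also at an unadjusted p under 0.05 and by edgeR) and 4 fell with MCF10A EVs against PBS, and 3 were higher and 6 lower between the EVs. Of the 2 that rose, Bgn was not called without PBS replicate 2 (0.13) and Ogn not without MDA-MB-231 EV replicate 2 (1.72). Dcn, which codes for decorin, a proteoglycan that binds collagen fibrils, had 27785 and 26621 normalised reads with MDA-MB-231 EVs, 38565 and 35808 with MCF10A EVs, and 51006 and 51079 with PBS. Thbs1, the matricellular protein thrombospondin 1, had 69519 and 67832 with MDA-MB-231 EVs, 89308 and 86964 with MCF10A EVs, and 138144 and 138937 with PBS. In both genes the 3 groups did not overlap, with MDA-MB-231 EVs lowest and PBS highest.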
